A study of Mus musculus with 12 samples.

Results

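Superoxide, hydrogen peroxide and nitric oxide are made on purpose by a small set of enzymes, and 10 mouse genes that encode such enzymes or their obligate partners were followed through the enteroid libraries. The members were taken by gene symbol: the superoxide-forming oxidase Nox1 with its partners Noxo1, Noxa1 and Cyba, the dual oxidases Duox1 and Duox2 with their maturation factors Duoxa1 and Duoxa2, the inducible nitric oxide synthase Nos2, and xanthine dehydrogenase Xdh. Of these 10 genes, 9 are among the 18929 genes listed in the count tables, and 8 passed the filter on low counts. Duox1 was listed but too low to test, and Duoxa1 was not listed.

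RNA-Seq was performed on 12 libraries of mouse jejunal enteroids, which are epithelial cultures grown from intestinal crypts in a gel. There were 4 control, 4 Hdac1-deficient and 4 Hdac2-deficient libraries, all taken after 5 days in medium with EGF, Noggin and R-Spondin 1. In the mutants, floxed Hdac1 or Hdac2, each encoding a class I histone deacetylase, was deleted by Cre recombinase under the villin promoter, which is active in intestinal epithelium, on a background mixed from several strains, among them C57BL/6 J and CD1. The controls are described both as villin-Cre and as wild-type. The medium of all groups contained N-acetylcysteine, an antioxidant. Crypts came from 1 mouse of each genotype, so that genotype cannot be told apart from the animal of origin or its culture, and the p-values below measure only the spread between these libraries.

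NADPH oxidases carry electrons from NADPH across a membrane to oxygen. NOX1 releases superoxide, and it works only together with the membrane subunit CYBA, the organizer NOXO1, the activator NOXA1 and the small GTPase RAC1. The dual oxidases release hydrogen peroxide, and each leaves the endoplasmic reticulum only with its maturation factor. NOS2 makes nitric oxide from arginine, and XDH oxidizes hypoxanthine and xanthine to urate, giving superoxide and peroxide when it acts as an oxidase. In the gut these enzymes are known for epithelial defence against microbes and for redox signalling.

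Library depth ran from 20693200 to 30658628 counted reads, so that 3 counts correspond to 0.0979 to 0.145 CPM (counts relative to the total of the library). Hdac1 was at 3.39 to 5.12 CPM in Hdac1-deficient libraries against 87.7 to 93.8 CPM in control, and Hdac2 was at 72.7 to 78.9 CPM in Hdac2-deficient libraries against 132 to 141 CPM in control. Epithelial markers were abundant in all libraries, with a summed level of 4805 to 6294 CPM over 6 genes. The 10 leukocyte markers, of which 4 (Adgre1, Cd3e, S100a8 and Fcgr1) were not listed, summed to 2.44 to 3.03 CPM in the control libraries, against 4.15 to 5.18 CPM for Hdac1-deficient and 7.89 to 11.7 CPM for Hdac2-deficient ones. Ly6g alone had a mean of 4.81 CPM in Hdac2-deficient enteroids, against 0.0603 CPM in Hdac1-deficient ones. The 8 mesenchymal and endothelial markers, of which Col1a2, Col3a1, Acta2 and Cdh5 were not listed, summed to at most 2.50 CPM in any library. The RNA of epithelial cell type markers differed between the groups: 4 stem cell markers summed to 3338 to 3532 CPM in the control libraries, against 1841 to 2164 CPM for Hdac1-deficient and 1528 to 1700 CPM for Hdac2-deficient ones, while 6 enterocyte markers summed to 5851 to 6245, 11080 to 12980 and 9450 to 10420 CPM. Goblet cell markers (7 genes) summed to 1589 to 1854, 1740 to 1857 and 2675 to 2885 CPM in the 3 groups, in the same order, and Paneth cell markers (5 genes) to 1327 to 1558, 2000 to 2149 and 2139 to 2248 CPM. Most of the goblet cell sum came from Fcgbp (945.5, 812.6 and 1356 CPM) and Tff3 (418.4, 315.4 and 471.9 CPM). Zg16 (log2 fold change 1.36 and 1.86) and Clca1 (1.22 and 2.125) were called increased in both mutants. The median log2 fold change of the 7 goblet cell markers was -0.03 and 0.53. The Paneth cell sum was carried by Lyz1 (545, 1294 and 1206 CPM), whereas the median log2 fold change of the 4 tested Paneth cell markers was 0.02 and 0.44, and Ang4 had values of -0.63 and 0.18. Enteroendocrine markers (4 genes) summed to 221.4 to 235.4, 224.6 to 250.4 and 239.1 to 258.8 CPM in the 3 groups, with overlapping ranges between control and Hdac1-deficient libraries. Tuft cell markers (3 genes) summed to 4.93 to 5.57, 4.39 to 6.52 and 2.95 to 3.64 CPM. The part of cell composition in the results below was not tested. In bulk RNA, a gene expressed in more or fewer cells cannot be told apart from a gene expressed at a higher or lower level per cell.

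Most of the producers were more abundant in both mutants. With the threshold of edgeR's quasi-likelihood test set at an adjusted p of 0.05 and a change of more than 2-fold, 6 of the 8 tested members were increased in Hdac1-deficient enteroids (Nox1, Noxa1, Cyba, Duox2, Duoxa2 and Nos2) and 0 decreased, against a background of 6.87% and 3.71% of the 14246 genes tested. In Hdac2-deficient enteroids, 5 of 8 were increased (Nox1, Duox2, Duoxa2, Nos2 and Xdh) and 0 decreased, against 5.45% and 2.84% of 14007 genes. With no limit on the fold change, 7 members rose and 1 (Noxo1) fell in Hdac1-deficient enteroids, where 32.7% and 31.9% of all tested genes did. In Hdac2-deficient enteroids 7 rose and 0 fell at that threshold, with a background of 31.4% and 30.9%. The median log2 fold change of the 8 members was 1.36 and 1.59, against a median of 0.00 over all tested genes in both comparisons. Both comparisons use the same 4 control libraries. Control reads of Nos2 were nearly absent (0 to 3 counts per library), so only the mutant libraries could carry it past the filter on low counts. A decrease of Nos2 could therefore not have been called, yet the gene is included in the counts and medians of this paragraph. The mutant and control libraries did not overlap for 8 of 8 tested members in Hdac1-deficient enteroids and for 7 in Hdac2-deficient enteroids, a property of 58.4% and 56% of all tested genes.

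**Figure D1:**
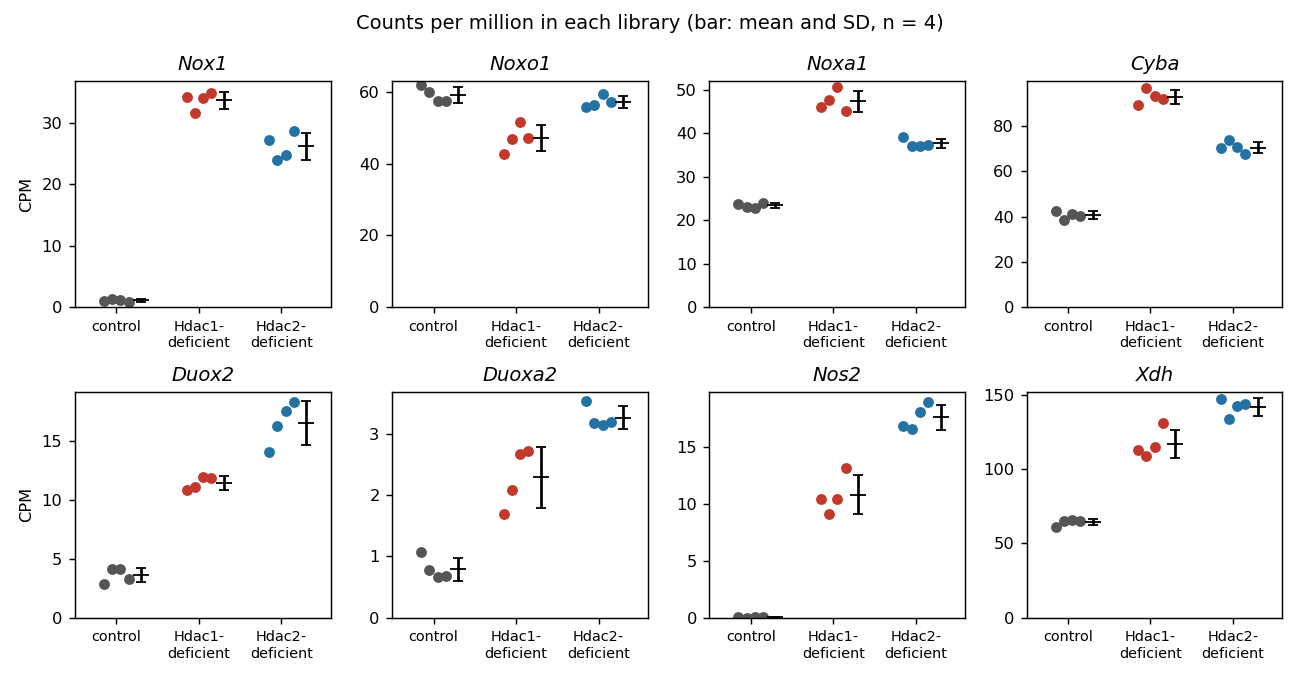
CPM of the 8 tested members in each of the 12 libraries, with points for single libraries and bars for the mean and SD of the 4 libraries of a group. The vertical axis is linear and starts at 0 in each panel. Nos2 sits at 0 to 0.0990 CPM in control and at 9.15 to 19.0 CPM in the mutants, and Noxo1 is the panel in which control libraries are not the lowest, at 57.4 to 62.1 CPM.

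Nox1, the catalytic subunit of the epithelial NADPH oxidase, lies on the minus strand of the X chromosome (ENSMUSG00000031257, GRCm38 chrX:134086421-134221956). It was low in control, at 0.932, 1.38, 1.09 and 0.884 CPM (28, 39, 33 and 21 counts). In Hdac1-deficient libraries it was counted at 34.2, 31.6, 34.1 and 34.8 CPM, and in Hdac2-deficient libraries at 27.2, 23.95, 24.8 and 28.7 CPM. The 3 groups did not overlap, and Hdac1-deficient libraries were the highest. Nox1 rose by 4.97 on the log2 scale (standard error 0.09, adjusted p = 1.5e-19 by edgeR) with Hdac1 deficiency and 4.61 (standard error 0.11, adjusted p = 8.6e-19 by edgeR) with Hdac2 deficiency. With each library left out in turn the values ran from 4.90 to 5.11 and from 4.53 to 4.75.

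Since Nox1 is X-linked, the rest of its chromosome was examined beside it. Xist, the RNA that coats the inactive X chromosome, was at 1.41 to 1.72 CPM in the control libraries, against 777 to 1075 CPM for Hdac1-deficient and 495 to 676 CPM for Hdac2-deficient ones. The sex of the mice is not among the labels used here. With 1 mouse of each genotype, a difference in sex or X chromosome state cannot be told apart from genotype in either comparison with control. Tested protein-coding genes of the X chromosome shifted by a median of -0.025 on the log2 scale with Hdac1 deficiency (362 genes) and -0.04 with Hdac2 deficiency (360 genes), and autosomal genes by 0.001 and 0.01. The fold change of Nox1 was matched or exceeded by 5 X-linked genes with Hdac1 deficiency and 4 with Hdac2 deficiency, itself included. Among the 308 X-linked genes with a mean log2 CPM of at least 1, this count was 1 in both comparisons, which is Nox1 itself. The gene model of Nox1 shares 399 exonic bases, or 12.1% of its exons, with Cstf2 on the opposite strand. Cstf2, a polyadenylation factor, had log2 fold changes of -0.28 and -0.27. Xkrx, on the same strand and inside the interval of Nox1, shares no exonic base with it and was at 0.234 to 0.356 CPM on average in the 3 groups.

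The promoter window of Nox1 is shown because this gene had the largest change of the 4 NOX1 complex genes. It covers 250 bases before and 50 after the RefSeq start, at chrX:134111805-134112104 on the minus strand of GRCm38, printed in the direction of transcription. This start lies inside the Nox1 interval given above. The gene model used for exons and overlaps begins farther upstream, at 134221956. Capitals mark, in order, GATAAG (read on the other strand), TTTATGG and the kappaB consensus (read on the other strand).
Nox1 promoter: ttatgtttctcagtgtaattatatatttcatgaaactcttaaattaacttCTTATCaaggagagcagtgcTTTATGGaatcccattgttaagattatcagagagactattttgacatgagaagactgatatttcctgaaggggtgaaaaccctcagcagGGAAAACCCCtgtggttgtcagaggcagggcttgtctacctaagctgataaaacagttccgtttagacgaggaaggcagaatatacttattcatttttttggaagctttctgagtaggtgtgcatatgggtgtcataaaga
The matches lie 200 to 195, 180 to 174 and 91 to 82 bases before the start. On either strand, GATAAG occurs in 7.44%, TTTATGG in 2.75% and the kappaB consensus in 4.51% of 32851 RefSeq promoter windows of the same length. The window has 38% G and C and 2 CG dinucleotides, where the median window has 52.7% and 7. A match of letters is not evidence of a bound factor.

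The partners of Nox1 moved far less. Noxa1, the activator subunit (ENSMUSG00000036805, chromosome 2), was counted at 23.8, 22.96, 22.7 and 24.02 CPM in control and at 46.0, 47.7, 50.6 and 45.0 CPM in Hdac1-deficient libraries. In Hdac2-deficient libraries it was at 39.2, 37.2, 37.1 and 37.3 CPM. The groups were separate, with control lowest and Hdac1-deficient highest. It rose by 1.03 on the log2 scale (standard error 0.05, adjusted p = 2.5e-13 by edgeR) with Hdac1 deficiency and by 0.70 (standard error 0.04, adjusted p = 1.2e-11 by edgeR) with Hdac2 deficiency. The former lies at the edge of the 2-fold limit: without Hdac1-deficient library 3 it was 0.996, and the number of members called increased was 5.

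Cyba, the membrane subunit that stabilizes NOX1 (ENSMUSG00000006519, chromosome 8), was counted at 42.6, 38.3, 41.0 and 40.3 CPM in control. It was at 89.3, 97.0, 93.2 and 91.8 CPM in Hdac1-deficient and at 70.2, 73.7, 70.5 and 67.7 CPM in Hdac2-deficient libraries. Again the groups did not overlap and had the order control, Hdac2-deficient, Hdac1-deficient. Its increases on the log2 scale were 1.20 (standard error 0.04, adjusted p = 3.2e-15 by edgeR) and 0.81 (standard error 0.04, adjusted p = 4.0e-13 by edgeR). Cyba is also abundant in phagocytes, and the part of leukocyte RNA in these values was not tested. Ptprc, the pan-leukocyte marker, had 0 to 2 counts per control library and a mean of 0.0704 and 0.0834 CPM in the mutants.

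Noxo1, the organizer subunit (ENSMUSG00000019320, chromosome 17), was the exception. It was counted at 62.1, 59.99, 57.6 and 57.4 CPM in the control libraries, at 42.7, 46.9, 51.8 and 47.2 CPM in Hdac1-deficient and at 55.7, 56.3, 59.4 and 57.2 CPM in Hdac2-deficient libraries. Hdac1-deficient libraries lay below all others, whereas Hdac2-deficient and control libraries overlapped. The log2 fold change was -0.32 in Hdac1-deficient (standard error 0.05, adjusted p = 1.3e-05 by edgeR) and -0.04 in Hdac2-deficient enteroids (95% interval -0.12 to 0.03, adjusted p = 0.34 by edgeR). Noxo1 shares 2122 exonic bases, 70.4% of its exons, with Tbl3 on the opposite strand, a ribosome biogenesis gene at 55.5 to 62.7 CPM on average. The libraries were made with a directional kit, but whether the counting used the strand is not given in the sources used here, so reads of these overlapping genes may not have been told apart.

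Per length of exon, the stoichiometry of NOX1 transcripts and their partners was very different in the mutants. In CPM per kilobase of exon, Nox1 was at 0.324 ± 0.0670 (SD, n = 4) in the control, 10.2 ± 0.435 with Hdac1 deficiency and 7.91 ± 0.666 with Hdac2 deficiency. Cyba, the most abundant of the 4, was at 39.0 ± 1.71, 89.3 ± 3.10 and 67.9 ± 2.36. The level of Nox1 was 0.0165 ± 0.00336 of that of Noxo1 in the control, 0.654 ± 0.0594 with Hdac1 deficiency and 0.418 ± 0.0394 with Hdac2 deficiency. Relative to Noxa1 it was 0.0225 ± 0.00512, 0.349 ± 0.0266 and 0.339 ± 0.0268, and relative to Cyba 0.00835 ± 0.00207, 0.114 ± 0.00828 and 0.117 ± 0.0136. Nox1 thus remained below each partner in all 12 libraries. These ratios were chosen after the values were seen. In two-sided exact permutation tests of the log2 ratios, with 4 libraries against 4, every Nox1 ratio differed from control with p = 0.0286, the smallest this design allows (Benjamini-Hochberg adjusted p = 0.049 over 12 tests). Between the mutants the ratio to Noxo1 differed (exact permutation p = 0.0286, adjusted 0.049), while the ratios to Noxa1 and Cyba differed by 0.04 and -0.03 on the log2 scale (exact permutation p = 0.7143 and 0.8). The exact permutation p-values of 0.0286 followed from the separate groups of Nox1 beside a smaller or opposite change of the partner. They were fixed by the values given above and add no support to them.

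**Figure D2:**
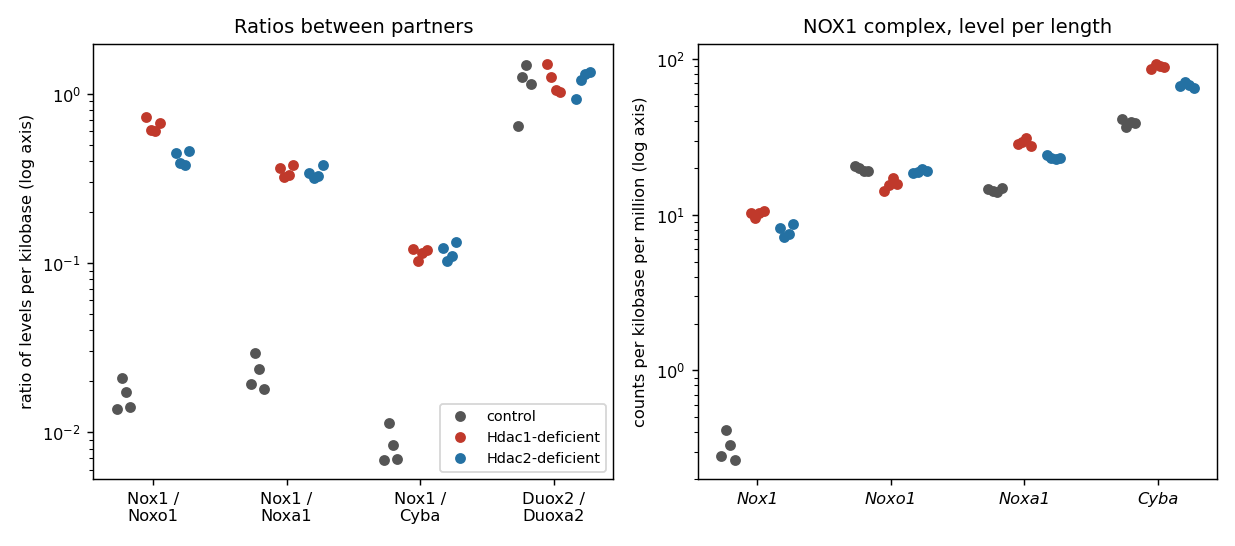
Left, ratio of the levels per kilobase of exon between partner genes in each library, on a log axis. Right, CPM per kilobase of the 4 NOX1 complex genes in each library, on a log axis. The control points of the 3 Nox1 ratios lie between 0.00688 and 0.0293 and the mutant points between 0.102 and 0.729, whereas the Duox2 to Duoxa2 ratio of all 12 libraries lies between 0.639 and 1.5.

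The remaining NADPH oxidase subunits and regulators, a list of 11 genes, had median log2 fold changes of 0.01 and 0.05. Cybb, Nox3, Ncf1 and Ncf4, which include the catalytic subunit and organizer of the phagocyte oxidase, were not listed. Of 5 tested genes, 1 was called increased and 0 decreased in Hdac1-deficient enteroids. Of 5 tested in Hdac2-deficient enteroids, 0 were called increased and 1 decreased. Among all tested genes, 6.87% were called increased and 3.71% decreased with Hdac1 deficiency, and 5.45% and 2.84% with Hdac2 deficiency. Sh3pxd2a, an organizer related to Noxo1, had log2 fold changes of 1.35 and 0.89. Rac3, a small GTPase, fell by 1.19 in Hdac2-deficient enteroids on the log2 scale. Rac1, the GTPase of the NOX1 complex, was at 393, 393 and 403 CPM in control, Hdac1-deficient and Hdac2-deficient enteroids, which is a log2 fold change of 0.01 and 0.05 (adjusted p = 0.82 and 0.19 by edgeR).

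The dual oxidase genes form a cluster on chromosome 2. Duox2 (ENSMUSG00000068452, minus strand) and Duoxa2 (ENSMUSG00000027225, plus strand) are arranged head to head with 450 bases between the starts of their GENCODE gene models. Duoxa1 and Duox1 are likewise head to head, 1941 bases apart, and the 3′ ends of Duoxa2 and Duoxa1 overlap by 695 bases. The promoter windows of Duox2 and Duoxa2 are shown because these neighbours moved together. Both are RefSeq windows on GRCm38, printed in the direction of transcription: Duox2 at chr2:122298178-122298477 on the minus strand and Duoxa2 at chr2:122298650-122298949 on the plus strand. The RefSeq start of Duox2 lies inside its GENCODE gene model, so that most of its window does too. Capitals mark TATAAA, found 30 to 25 bases before the start of Duoxa2.
Duox2 promoter: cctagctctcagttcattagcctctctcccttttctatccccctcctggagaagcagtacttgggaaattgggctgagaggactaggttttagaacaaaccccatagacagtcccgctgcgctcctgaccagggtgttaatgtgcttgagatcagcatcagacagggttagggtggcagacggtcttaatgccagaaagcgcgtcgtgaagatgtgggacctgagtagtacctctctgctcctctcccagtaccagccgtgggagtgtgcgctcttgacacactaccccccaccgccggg
Duoxa2 promoter: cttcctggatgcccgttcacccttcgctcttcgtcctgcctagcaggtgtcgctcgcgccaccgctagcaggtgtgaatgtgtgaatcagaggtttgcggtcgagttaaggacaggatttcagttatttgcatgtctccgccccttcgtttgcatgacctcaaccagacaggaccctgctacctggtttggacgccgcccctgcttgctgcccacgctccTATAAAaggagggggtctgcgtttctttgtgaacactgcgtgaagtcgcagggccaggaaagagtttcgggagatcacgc
The letters TATAAA occur in 13.6% of all windows on either strand. The other motifs searched were TTCNNNGAA, found in 8.3% of windows, and those named above for Nox1. The Duoxa2 window held no match to them, and the Duox2 window held no match to any motif searched. The Duoxa2 window holds 19 CG dinucleotides and that of Duox2 holds 10.

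Duox2, which releases hydrogen peroxide at the apical surface of epithelia, was counted at 2.90, 4.13, 4.16 and 3.28 CPM in the control libraries. Hdac1-deficient libraries had 10.8, 11.1, 11.9 and 11.8 CPM, and Hdac2-deficient libraries 14.05, 16.2, 17.5 and 18.3 CPM. The 3 groups were separate. Duoxa2, without which DUOX2 does not mature, was counted at 1.07, 0.776, 0.660 and 0.673 CPM in control. In Hdac1-deficient libraries it was at 1.69, 2.08, 2.67 and 2.72 CPM, and in Hdac2-deficient libraries at 3.54, 3.17, 3.15 and 3.19 CPM. Both genes had the group order control, Hdac1-deficient, Hdac2-deficient. Duoxa2 rose by 1.52 on the log2 scale (standard error 0.21, adjusted p = 2.0e-06 by edgeR) with Hdac1 deficiency and by 2.04 (standard error 0.17, adjusted p = 1.4e-09 by edgeR) with Hdac2 deficiency, beside 1.66 and 2.19 for Duox2. Per length, the level of Duox2 was 1.13 ± 0.355 (SD, n = 4) times that of Duoxa2 in the control, 1.21 ± 0.221 with Hdac1 deficiency and 1.20 ± 0.187 with Hdac2 deficiency. These ratios differed by at most 0.14 on the log2 scale (exact permutation p = 0.7143, 0.7429 and 1.0), and Duoxa2 had 16 to 32 counts per control library. Duoxa2 shares 682 exonic bases, 42.8% of its exons, with Duoxa1 on the opposite strand.

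Duox1 and Duoxa1 stayed at the limit of detection. Duox1 (ENSMUSG00000033268) had 1, 0, 0 and 0 counts in control, 2, 6, 5 and 2 in Hdac1-deficient and 0, 4, 0 and 5 in Hdac2-deficient libraries. Summed over libraries, that is 15 counts against 1 in Hdac1-deficient enteroids, a ratio of 14.6 at equal depth with a 95% counting interval of 2.25 to 616. In Hdac2-deficient enteroids, 9 counts against 1 gave a ratio of 10.5 (1.45 to 459). These intervals cover counting error only. Duox1 was below the filter on low counts. When every listed gene was tested, or with DESeq2, it was called increased in Hdac1-deficient enteroids, by 3.33 and 3.57 on the log2 scale, and it was not called in Hdac2-deficient enteroids. Duoxa1 (ENSMUSG00000027224) was absent from the tables, which list genes with at least 10 counts summed over the 8 libraries of a comparison, so it had at most 9.

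The genes next to the cluster had changes of different sizes and signs. Sord, the sorbitol dehydrogenase gene 13.9 kb from Duox2, had log2 fold changes of 0.71 and 0.44, and Shf, an adaptor gene 0.92 kb from Duox1, of 0.29 and -0.03. B2m, the light chain of class I histocompatibility molecules, was at 0.24 and 0.36. Slc28a2, which encodes a purine nucleoside transporter 78.5 kb away, was called increased in both mutants, by 2.51 and 2.79 on the log2 scale (adjusted p = 4.5e-12 and 1.6e-13 by edgeR). Gatm, a creatine synthesis gene, had values of -1.49 and 0.05 (adjusted p = 4.3e-09 and 0.71 by edgeR).

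**Figure D3:**
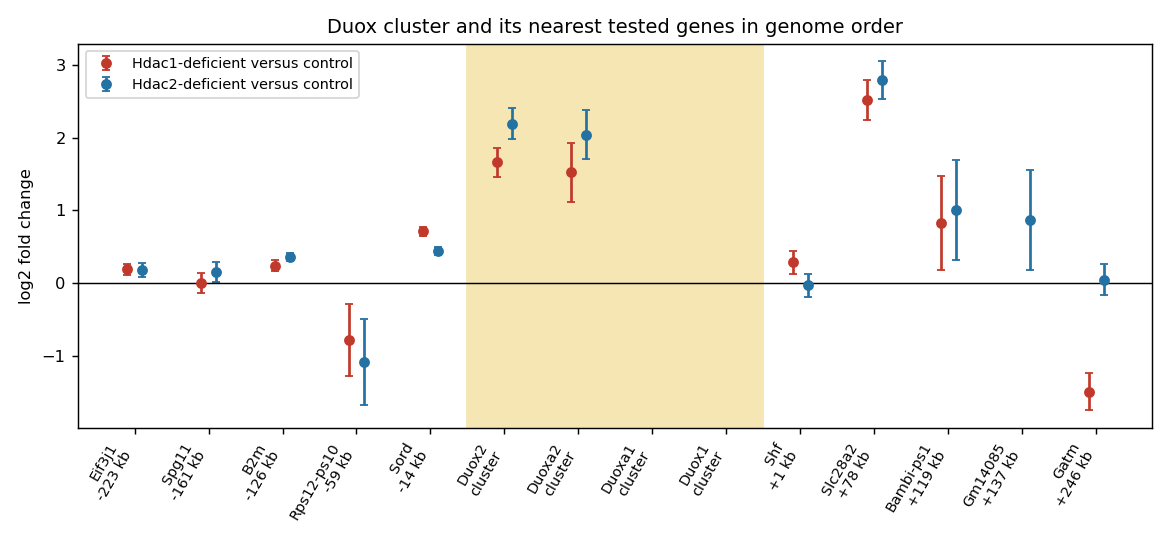
Log2 fold change against control of the Duox cluster (shaded) and of the 5 nearest tested genes on either side, in genome order, with bars for 95% intervals and distances from the cluster in kb. Duox2, Duoxa2 and Slc28a2 are above 1 in both mutants, at 1.52 to 2.79, while Sord and Shf, the closest genes on either side, are at -0.03 to 0.71, and Duoxa1 and Duox1 have no fitted value.

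Nos2, the inducible nitric oxide synthase (ENSMUSG00000020826, GRCm38 chr11:78920787-78960254, plus strand), went from almost no reads to a clear level. It had 1, 0, 3 and 1 counts in the control libraries. The Hdac1-deficient libraries had 279, 282, 316 and 365 counts, or 10.5, 9.15, 10.4 and 13.2 CPM. The Hdac2-deficient libraries had 459, 425, 375 and 440 counts, or 16.9, 16.6, 18.1 and 19.0 CPM. The groups were far apart, and control lay at or below 3 counts in every library. At equal depth, the 1242 counts of Hdac1-deficient libraries against 5 in control gave a ratio of 242, with a 95% counting interval of 104 to 748. The 1699 counts of Hdac2-deficient libraries gave a ratio of 396 (169 to 1220). The fitted log2 fold changes were 7.80 (adjusted p = 1.1e-14 by edgeR) and 8.49 (adjusted p = 6.8e-19 by edgeR). Their size rests on the few control counts: without control library 3, which had 3 of the 5 counts, they were 8.56 and 9.24. In leukocytes Nos2 is a known macrophage gene. Of the leukocyte markers, Itgam, an integrin chain, was increased in both mutants (0.834 CPM in control, 2.03 and 2.68 CPM in the mutants), S100a9, a neutrophil calcium-binding protein, in Hdac1-deficient enteroids (0.164 to 0.996 CPM) and Ly6g, a neutrophil surface marker, in Hdac2-deficient enteroids (0.133 to 4.81 CPM). The macrophage markers Adgre1 and Fcgr1 were not listed, and Csf1r was at 0.410, 0.731 and 0.146 CPM in control, Hdac1-deficient and Hdac2-deficient enteroids. Cd68, a lysosomal macrophage marker, was at 1.094, 0.9497 and 1.501 CPM in the same order (log2 fold change -0.21 and 0.45, adjusted p = 0.34 and 0.035 by edgeR).

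Around Nos2, genes of arginine supply and of the cofactor tetrahydrobiopterin were measured as a list of 17, of which 16 were listed and tested. In Hdac1-deficient enteroids 2 were called increased and 3 decreased, and in Hdac2-deficient enteroids 1 and 1, with medians of 0.07 and 0.10 on the log2 scale. The background over all tested genes was 6.87% increased and 3.71% decreased with Hdac1 deficiency, and 5.45% and 2.84% with Hdac2 deficiency. Gchfr, which encodes the feedback regulator of GTP cyclohydrolase, rose from 0.916 CPM to 5.59 and 4.31 CPM (log2 fold change 2.63 and 2.25). Gch1, the GTP cyclohydrolase that starts tetrahydrobiopterin synthesis, had values of -0.09 and 0.22 (adjusted p = 0.19 and 8.2e-04 by edgeR). Slc7a2, a transporter of cationic amino acids such as arginine, fell from 4.10 CPM to 0.984 and 0.970 CPM (log2 fold change -2.06 and -2.09). Ddah2, which degrades methylarginine inhibitors of nitric oxide synthases, rose from 1.07 to 2.65 CPM in Hdac1-deficient enteroids (log2 fold change 1.31, and 0.44 with Hdac2 deficiency). Ass1, which takes part in the regeneration of arginine from citrulline, had log2 fold changes of -1.20 and -0.73. Arg2, an arginase that consumes arginine, was at 86.1 CPM in control and 161 and 130 CPM in the mutants (log2 fold change 0.91 and 0.61). The endothelial synthase gene Nos3 was at 1.34, 0.642 and 1.44 CPM in control, Hdac1-deficient and Hdac2-deficient enteroids, and the neuronal synthase gene Nos1 was not listed.

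Xdh (ENSMUSG00000024066, GRCm38 chr17:73883895-73950196, minus strand) was already well expressed in control, where it was counted at 61.0, 64.9, 65.8 and 65.1 CPM. Hdac1-deficient libraries had 113, 109, 115 and 131 CPM, and Hdac2-deficient libraries 147, 133, 142 and 144 CPM. The groups did not overlap, with Hdac1-deficient library 4 closest to the Hdac2-deficient range. Xdh rose by 0.87 on the log2 scale (standard error 0.05, adjusted p = 2.2e-11 by edgeR) with Hdac1 deficiency, which is 1.83-fold and under the 2-fold limit, and 1.15 (standard error 0.04, adjusted p = 1.7e-16 by edgeR) with Hdac2 deficiency.

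In the list of 19 genes of purine degradation and of the molybdenum cofactor that XDH carries, 15 were tested. Of these, 1 was called increased and 1 decreased with Hdac1 deficiency, and 3 were called increased and 0 decreased with Hdac2 deficiency. The shares over all tested genes were 6.87% and 3.71% with Hdac1 deficiency, and 5.45% and 2.84% with Hdac2 deficiency. Nt5e, the ectonucleotidase that forms adenosine outside cells, was at 0.387 CPM in the control, 0.812 CPM with Hdac1 deficiency and 3.94 CPM with Hdac2 deficiency (log2 fold change 1.09 and 3.35). Gda, which makes xanthine from guanine, had log2 fold changes of 0.18 and 1.01, and Mocos, the sulfurase that activates the molybdenum cofactor of XDH, of 0.72 and 1.04. Ampd3, an AMP deaminase, had values of -1.28 and -0.37. The aldehyde oxidase genes Aox1 and Aox3, which belong to the same enzyme family as Xdh, were not listed.

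Compared directly, the mutants differed in every tested member, by less than 2-fold. In a fit of all 12 libraries, 0 of 8 members differed by more than 2-fold, against a background of 2.74% higher and 2.89% lower in Hdac1-deficient enteroids among 14510 genes. At the same adjusted p with no limit on the fold change, all 8 tested members differed: 3 were higher in Hdac1-deficient and 5 higher in Hdac2-deficient enteroids, where 22.3% and 23.7% of all tested genes were. The libraries of the mutants did not overlap for any of the 8, as for 41.6% of all tested genes. Nox1, Noxa1 and Cyba were higher in Hdac1-deficient enteroids, by 0.36, 0.32 and 0.39 on the log2 scale (adjusted p = 1.5e-05, 6.0e-07 and 3.7e-09 by edgeR). Noxo1, Duox2, Duoxa2, Nos2 and Xdh were higher in Hdac2-deficient enteroids. Their log2 differences, Hdac1-deficient minus Hdac2-deficient, were -0.28, -0.53, -0.51, -0.71 and -0.28 (adjusted p = 2.1e-05, 1.2e-05, 0.0073, 5.7e-07 and 4.2e-05 by edgeR). At the level of RNA, 3 of the 4 NOX1 complex genes were thus higher in Hdac1-deficient enteroids. Noxo1 and the other tested members, Duox2, Duoxa2, Nos2 and Xdh, were higher in Hdac2-deficient enteroids. With each library left out in turn, each of these 8 differences kept its sign and an adjusted p of at most 0.036.

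**Figure D4:**
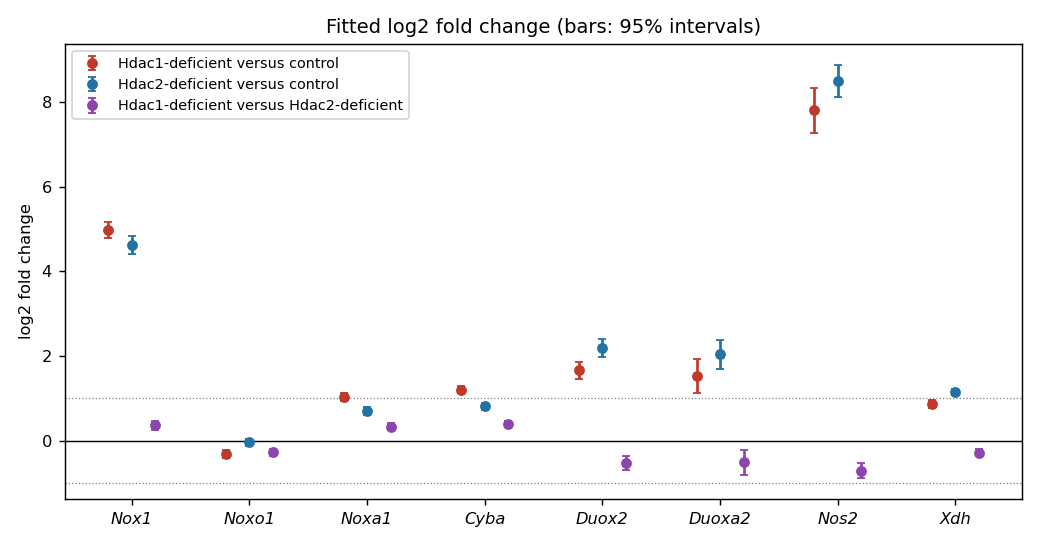
Fitted log2 fold change of the 8 tested members in the 3 comparisons, with bars for 95% intervals and dotted lines at a 2-fold change. Nos2 (7.80 and 8.49) and Nox1 (4.97 and 4.61) stand above the other members against control, and the direct differences between mutants all lie between -0.71 and 0.39, positive for Nox1, Noxa1 and Cyba and negative for the rest.

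Per length, the order of the members changed between groups. In control it was Cyba (39.0 CPM per kilobase), Noxo1 (19.7), Noxa1 (14.5), Xdh (6.999), Duox2 (0.534), Duoxa2 (0.499), Nox1 (0.324), Nos2 (0.00988) and Duox1 (0.00158), with Duox2 and Duoxa2 closer than the SD of either. In Hdac1-deficient enteroids Nox1 (10.2) and Nos2 (2.45) stood above Duox2 (1.69) and Duoxa2 (1.44), and Noxa1 (29.3) above Noxo1 (15.7). The order in Hdac2-deficient enteroids was Cyba (67.9), Noxa1 (23.3), Noxo1 (19.0), Xdh (15.4), Nox1 (7.91), Nos2 (4.00), Duox2 (2.44) and Duoxa2 (2.05). The places of Noxo1 and Xdh depend on the length assigned to them. Over its longest transcript of 2238 bases, instead of an exon union of 3013 bases, Noxo1 was at 25.5 CPM per kilobase in Hdac2-deficient enteroids. That is above Noxa1 (23.3). Over the longest protein-coding transcript of 4600 bases, instead of an exon union of 9175 bases, the level of Xdh was 13.96, 25.4 and 30.8 CPM per kilobase in the 3 groups.

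Other enzymes that form peroxide, and those that remove superoxide and peroxide, were followed as lists. Of 23 other peroxide-forming oxidases, 3 of 16 tested were called increased and 1 decreased with Hdac1 deficiency, and 2 of 15 increased and 0 decreased with Hdac2 deficiency, with median log2 fold changes of 0.30 and 0.34. Beside these stand 6.87% and 3.71% of all tested genes with Hdac1 deficiency, and 5.45% and 2.84% with Hdac2 deficiency. Acox2, a peroxisomal oxidase of bile acid intermediates and branched fatty acids, rose most in Hdac2-deficient enteroids (log2 fold change 0.81 and 1.82). Loxl2, a lysyl oxidase, rose from 0.249 to 0.865 CPM in Hdac1-deficient enteroids (log2 fold change 1.79), and Dao, D-amino acid oxidase, from 12.98 to 39.7 CPM (log2 fold change 1.62).

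Of the 14 genes for removal, 12 were tested and 0 were called in either direction in either mutant by edgeR. Over all tested genes, 6.87% were called increased and 3.71% decreased with Hdac1 deficiency, and 5.45% and 2.84% with Hdac2 deficiency. With no limit on the fold change, 3 rose and 7 fell in Hdac1-deficient enteroids and 5 rose and 5 fell in Hdac2-deficient enteroids. At that threshold 32.7% and 31.9% of all tested genes rose and fell with Hdac1 deficiency, and 31.4% and 30.9% with Hdac2 deficiency. The superoxide dismutase genes Sod1 (372 CPM in control) and Sod2 (101 CPM in control) had log2 fold changes between -0.07 and 0.06, with adjusted p-values from 0.082 to 0.6 by edgeR. Cat, the catalase gene, had log2 fold changes of 0.39 and 0.15, and Gpx2, the glutathione peroxidase of the intestinal epithelium, of 0.37 and 0.56. The peroxiredoxin genes Prdx3, Prdx4 and Prdx5 fell in both mutants. Their log2 fold changes were -0.536, -0.575 and -0.674 with Hdac1 deficiency and -0.618, -0.405 and -0.521 with Hdac2 deficiency. Prdx1 (-0.153 and -0.151) and Prdx2 (-0.357 and -0.111) also fell in both, whereas Prdx6 went opposite ways (-0.215 and 0.205). Of the 4 peroxidases, which use hydrogen peroxide, Mpo and Epx were not listed, and Lpo and Pxdn were too low to test. Pxdn, a peroxidase of basement membranes, had 0 counts in all 4 control libraries and a mean of 0.169 and 0.128 CPM in the mutants. Lpo was at 0.150 CPM in control and 0.00811 and 0.00922 CPM in the mutants.

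Cytokine and NF-kB genes known to regulate Nos2 or Duox2 formed a list of 26, of which 24 were tested. In Hdac1-deficient enteroids 5 were called increased and 0 decreased, and in Hdac2-deficient enteroids 2 and 0, with medians of 0.19 and 0.27 on the log2 scale. The background was 6.87% and 3.71% of all tested genes with Hdac1 deficiency, and 5.45% and 2.84% with Hdac2 deficiency. Tnf, a cytokine that induces Nos2 in many cells, rose from 0.413 CPM to 2.91 and 2.58 CPM (log2 fold change 2.83 and 2.65). Il18, an epithelial cytokine, rose from 9.38 CPM to 41.5 and 44.6 CPM (log2 fold change 2.16 and 2.26). Nod2, an intracellular sensor of bacterial cell walls, was at 1.17, 3.56 and 1.44 CPM in control, Hdac1-deficient and Hdac2-deficient enteroids (log2 fold change 1.63 and 0.32). With no limit on the fold change, 13 of the list rose and 4 fell with Hdac1 deficiency, and 14 rose and 4 fell with Hdac2 deficiency. Among NF-kB subunit genes, Rela had log2 fold changes of -0.546 and -0.574, Nfkb1 of -0.246 and -0.13 and Nfkb2 of -0.305 and -0.219. Relb went the other way (0.176 and 0.297). The cytokine genes Il1b and Il6 were not listed.

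**Figure D5:**
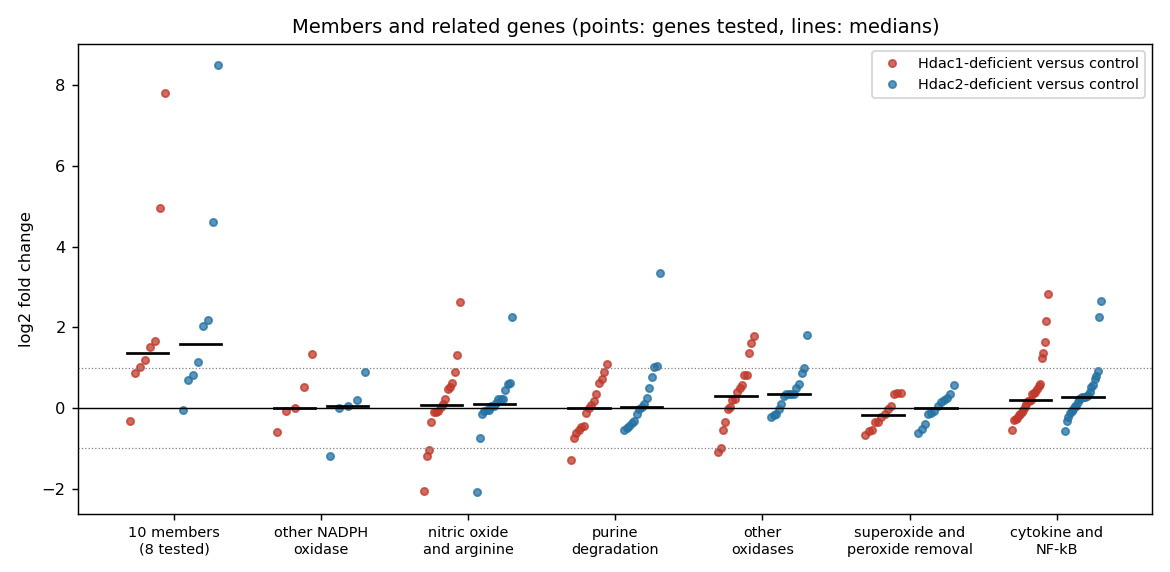
Log2 fold change against control of the 8 tested members and of the tested genes of 6 related lists, with a point per gene, a line at each median and dotted lines at a 2-fold change. The members have medians of 1.36 and 1.59 and reach 8.49, whereas the list medians lie between -0.18 and 0.34.

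The genes whose pattern over the 12 libraries was most like that of a member were found among 12533 protein-coding genes by the root mean square difference of centred log2 CPM. For Nox1 they were Urah (0.297), Ulbp1 (0.320) and Tmeff1 (0.320). Urah, which encodes hydroxyisourate hydrolase of urate breakdown, was at 0.254 ± 0.118 CPM (SD, n = 4) in the control, 8.97 ± 0.576 CPM with Hdac1 deficiency and 7.62 ± 0.264 CPM with Hdac2 deficiency. For Duox2 they were Ces3a (0.191), Sgsm1 (0.198) and Clu (0.212), the last encoding the secreted chaperone clusterin. For Nos2 the nearest were Nlrp1b (0.492), an inflammasome sensor, Pm20d1 (0.586) and AI467606 (0.614). Nlrp1b was at 0.0248 ± 0.0316, 4.51 ± 0.421 and 8.78 ± 1.11 CPM in control, Hdac1-deficient and Hdac2-deficient enteroids. For Xdh they were Sqrdl (0.059), which oxidizes sulfide in mitochondria, Cd36 (0.073), a fatty acid receptor, and Cx3cl1 (0.075), a chemokine. Sqrdl was at 99.6 ± 1.57, 170 ± 11.2 and 210 ± 8.61 CPM. Such likeness over 3 groups describes the pattern alone.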

How the data were processed

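RNA-Seq libraries were grouped by the genotype and replicate in their labels. The authors aligned reads to GRCm38 with STAR (version 2.4.0f1 in the submitters' processing notes); the counting program is not given in the sources used here. The deposited counts are whole reads per gene, not normalized, in 1 table per mutant with the same control libraries. Deposited normalized scores, which are counts scaled by 1 factor per library and rounded, were not used. The log2 fold changes and p-values deposited by the authors are their own comparisons and were not used.

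Counts were tested with edgeR 4.0.16 in R 4.3.3 (TMM normalization, filterByExpr, robust quasi-likelihood F test, Benjamini-Hochberg adjustment over all tested genes), with each mutant against control in 8 libraries and the mutants against each other in 12. A call needed an adjusted p of 0.05 or less and a change of more than 2-fold. Standard errors were derived from the log2 fold change and F (absolute value over root F). CPM used TMM factors of 0.98 to 1.015. Levels per length used exon unions of GENCODE M21. Per library, the depth was 20693200 to 30658628 counts, and the common biological coefficients of variation were 0.0384 to 0.0425. Ratios of summed counts carry exact 95% counting intervals; a lower bound had been planned for groups of at most 3 counts per library, but control libraries with 1 to 3 counts allow no bound. Promoters are RefSeq windows (GRCm38.p6), found for 8 of the 10 members, not for Nos2 and Xdh. The edgeR script was tested on simulated counts. Python 3.11.15, pandas 2.3.3, scipy 1.17.1 and matplotlib 3.10.9 were used.

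Members and lists were chosen with earlier results of these data known. Some genes of the lists are not reported here and were left out of the lists' counts, sums and medians. Named genes are all members, targeted genes, up to 3 called genes of each list with the largest change, partners of members, profile neighbours and cluster neighbours. Ass1, Gda, Prdx1, Prdx2, Prdx3, Prdx4, Prdx5, Prdx6, Fcgbp, Tff3, Rela, Nfkb1, Nfkb2, Relb and the genes that overlap members were added after their values were seen. Alternatives were RLE size factors, library size alone, no filter, DESeq2 1.42.0, the replicate block, no fold limit, an adjusted p of at most 0.01, other sample sets, each library left out, and other gene lengths, of which the longest protein-coding transcript was added after seeing the data. No library was left out of the main tests.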

Additional observations from a re-analysis of the deposited data

Results flagged for a closer look

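In 3 of 27 groups of 4 libraries, a single library stood apart from the others by Dixon's criterion, which chance meets in about 1 in 20 groups. Noxa1 was at 39.2 CPM in Hdac2-deficient library 1, above the 37.1 to 37.3 CPM of the other Hdac2-deficient libraries and below all Hdac1-deficient libraries. Duoxa2 was at 3.54 CPM in the same library, above 3.15 to 3.19 CPM in the rest of its group. Duox1 was at 0.0333 CPM in control library 1, which is 1 count against 0 in the other control libraries. The cause was not tested.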

How the results depend on the processing

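The members called kept their direction under every alternative run. With no limit on the fold change, the members called decreased in Hdac1-deficient enteroids numbered 1, and the mutants differed in 3 members higher and 5 lower in Hdac1-deficient enteroids, by construction of that alternative. With each library left out in turn, 5 to 6 members were called increased with Hdac1 deficiency, 5 with Hdac2 deficiency, and 0 between the mutants. Only the loss of Noxa1 (log2 fold change 0.996 without Hdac1-deficient library 3) changed a call in these runs. With the replicate number as a block, 6, 5 and 0 members were called, as without it. Same-numbered libraries had correlations of their deviations from the group means between -0.046 and 0.091. The best match, out of 4 candidate libraries each time, carried the same number in 11 of 24 cases. These values do not settle whether the numbers mark pairs. The labels do not state pairs, and the main tests used none. Duox1 was called in Hdac1-deficient enteroids with no filter (3.33) or DESeq2 (3.57). X chromosome medians without low genes were -0.033, -0.053 and -0.005 in the 3 comparisons. Precision is limited by depth for Nos2, Duox1, Duoxa2 and Nox1 in control, which had 0 to 39 counts per library.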
